A study of Rattus norvegicus with 35 samples.

Results

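Voltage-gated calcium and sodium channel genes were followed across 35 RNA libraries of female rat hippocampus. A gene was included when its name in the deposited count table started with Cacna, Cacnb or Cacng, or with Scn followed by a digit. This gave 36 of the 15059 genes in that table, 23 of calcium channels and 13 of sodium channels. The filter on low counts passed 34 of them, 22 calcium and 12 sodium channel genes, among 14411 genes tested. Cacna1s and Scn11a did not pass it, with medians of 3 counts each and highest counts of 10 and 20.

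The animals were Sprague Dawley rats, operated on at 6 months of age and kept for 2 weeks before treatment. One group of 5 had a sham operation. The other 6 groups of 5 had their ovaries removed and then received, once a day by intraperitoneal injection, vehicle, estradiol at 0.16 mg/kg, tamoxifen at 3.23 mg/kg, raloxifene at 9.68 mg/kg, exemestane at 0.16 mg/kg or anastrozole at 4.03 mg/kg, with tissue taken 7 days after treatment began. Tamoxifen and raloxifene bind estrogen receptors and block or activate them depending on the tissue, whereas exemestane and anastrozole inhibit aromatase, the enzyme that makes estrogens from androgens. Each library is bulk RNA of the whole dissected hippocampus, so fewer cells of a type and less RNA per cell cannot be told apart. The labels do not say whether each library came from its own animal or how dissections were shared out, so p-values measure the spread between these libraries.

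Voltage-gated calcium channels open when the membrane depolarises and let calcium into the cell, where it triggers transmitter release, firing patterns and gene expression. Each is built on a pore subunit, named Cacna1 with a letter, that for most types assembles with a beta subunit inside the membrane and an alpha2delta subunit outside it. The gamma genes of brain mostly encode TARPs, proteins that carry AMPA-type glutamate receptors to synapses, although the family is named after a calcium channel subunit of muscle. Voltage-gated sodium channels start and carry the action potential, with a pore subunit, named Scn with a number and the letter a, and single-pass beta subunits, which end in b, that set gating and anchoring. In hippocampus, sodium channels cluster at the start of the axon, and T-type calcium channels open near rest and support burst firing.

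Promoters are shown for 4 members because they include genes that rose, fell or had their smallest p under different treatments and differ in base composition. They come from RefSeq on the GRCr8 assembly, run 5′ to 3′ from 250 bases before to 50 after an annotated start, and hold capitals at the Sp1 box GGGCGG or its complement, overlapping hits included. Cacna2d1 has 3 annotated starts, of which 1 is printed.
Cacna2d1 promoter, chr4:20330098-20330397, minus strand: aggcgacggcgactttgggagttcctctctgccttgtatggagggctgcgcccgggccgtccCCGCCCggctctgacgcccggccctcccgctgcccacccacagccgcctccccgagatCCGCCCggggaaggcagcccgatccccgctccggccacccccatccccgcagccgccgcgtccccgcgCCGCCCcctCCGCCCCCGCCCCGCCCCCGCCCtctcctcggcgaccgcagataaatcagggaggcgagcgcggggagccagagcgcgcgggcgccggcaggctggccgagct
Scn2a promoter, chr3:70710706-70711005, plus strand: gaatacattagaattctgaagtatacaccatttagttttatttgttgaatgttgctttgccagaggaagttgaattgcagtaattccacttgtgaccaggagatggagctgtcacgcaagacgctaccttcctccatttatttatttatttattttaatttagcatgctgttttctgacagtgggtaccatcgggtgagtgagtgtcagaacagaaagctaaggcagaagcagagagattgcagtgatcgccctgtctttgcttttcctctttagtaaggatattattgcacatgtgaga
Cacnb3 promoter, chr7:131666301-131666600, plus strand: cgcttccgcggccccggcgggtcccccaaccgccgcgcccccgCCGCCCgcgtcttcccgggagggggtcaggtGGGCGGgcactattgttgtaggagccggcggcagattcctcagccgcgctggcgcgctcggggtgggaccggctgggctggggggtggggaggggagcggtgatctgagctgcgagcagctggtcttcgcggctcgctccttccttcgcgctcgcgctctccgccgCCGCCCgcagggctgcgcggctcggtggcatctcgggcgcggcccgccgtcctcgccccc
Scn2b promoter, chr8:54322133-54322432, plus strand: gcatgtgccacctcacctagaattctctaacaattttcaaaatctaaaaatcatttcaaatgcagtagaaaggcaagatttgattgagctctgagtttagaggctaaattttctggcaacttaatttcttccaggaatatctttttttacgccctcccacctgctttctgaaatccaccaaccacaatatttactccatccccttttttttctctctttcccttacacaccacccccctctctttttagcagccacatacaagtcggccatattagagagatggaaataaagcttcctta

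The Cacna2d1 and Cacnb3 windows had GC contents of 78.3% and 77.7%, against 39.3% for Scn2a and 39% for Scn2b, which held no Sp1 box. RefSeq gave promoters for 25 of the 36 genes, 28 windows in all. On both strands, the Sp1 box stood in those of 13 of the 25 genes and in 33.1% of all 33469 promoters of the same length. The palindromic estrogen response element stood in 0 of the 25 genes and in 0.0269% of all promoters. One arm of it, AGGTCA, stood in Cacng8 and Scn9a and in 16.2% of all promoters, and the cAMP response element TGACGTCA in 0 of the 25 genes and in 1.83% of all. Over 23 tested genes with a promoter, GC content and the raloxifene log2 fold change had a Pearson correlation of -0.161, given as a description. In RefSeq gene order, no protein-coding gene lay between Scn1a, Scn9a and Scn7a, between Scn3a and Scn2a, between Scn2b and Scn4b, between Cacng4 and Cacng5, or between Cacng6, Cacng8 and Cacng7.

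The libraries held 5578204 to 12093294 counts each, with a median of 8010522, and the channel genes took 0.473 to 0.584% of them. The 2 tables the authors deposited differ by a factor for each gene and library, and the first component of its logarithm, with 72.3% of the variance against 1.69% for the second, split the libraries into a class A of 20 and a class B of 15. Class A held all 5 sham and 5 estradiol libraries, 4 vehicle, 3 anastrozole, 2 tamoxifen and 1 exemestane library. Class B held all 5 raloxifene libraries, 4 exemestane, 3 tamoxifen, 2 anastrozole and 1 vehicle library. The share of counts from Rn7sl1, a small cytoplasmic RNA, was at least 4.47% in each class A library and at most 3.84% in each class B library. The summed level of 5 pan-neuronal genes, Map2 and Syt1 among them, was at most 4354 CPM (counts scaled to a common library total by TMM) in class A and at least 4588 CPM in class B. Map2 and Syt1, with medians of 2339 and 1326 CPM, made up most of that sum, and the other medians were at most 273 CPM. The pyramidal neuron sum, over 4 genes, differed the other way, at 1481 to 1711 CPM in class B and 1729 to 1998 CPM in class A apart from sham replicate 1. Class and treatment therefore cannot be told apart for raloxifene, and the count for each comparison is given as designed and with class as a term in the model.

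One library stood apart in its tissue markers. Sham replicate 1 had a summed thalamus and habenula level of 339 CPM, against 63.4 to 96.5 in the other 34 libraries, and a pyramidal neuron sum of 930 CPM against 1481 to 1998. Among the 28 channel genes with a median of at least 10 CPM it was the lowest library for 10, Scn2a and Scn3b among them, and the highest for 4, Cacna2d2, Cacng7, Scn1a and Scn4b. Choroid plexus markers summed to 961 CPM or more in 15 libraries and to at most 79.9 in the other 20, a break that was chosen after the values were seen. The excitatory neuron gene Slc17a7 was at 724 CPM or more in every library, and the skeletal muscle list summed to at most 40.0 CPM.

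Levels of the members follow by role, as the lowest, median and highest of 35 libraries. They are not scaled for gene length, so they are not compared between genes. Of the L-type pores, which couple depolarisation to gene expression, Cacna1c ran from 120 over 152 to 173 CPM and Cacna1d from 114 over 143 to 175, whereas the muscle pore Cacna1s reached at most 1.27. Of the presynaptic pores, Cacna1a (P/Q-type) ran from 266 over 352 to 413 CPM, Cacna1b (N-type) from 205 over 245 to 288, and Cacna1e (R-type) from 408 over 578 to 628. The T-type pores Cacna1g, Cacna1h and Cacna1i had medians of 119, 160 and 232 CPM. Their lowest counts in any library were 564, 810 and 1020. Of the alpha2delta subunits, Cacna2d1 had a median of 205 CPM, Cacna2d2 one of 44.0 and Cacna2d3 one of 178. The beta subunits Cacnb1 to Cacnb4 had medians of 127, 44.9, 135 and 113 CPM. Of the TARPs, Cacng2 (stargazin), Cacng3, Cacng4, Cacng7 and Cacng8 had medians of 47.1, 58.3, 57.2, 78.4 and 127 CPM, and Cacng5 one of 7.63. Cacng6, the muscle-type gamma gene, had a median of 8 counts.

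The brain sodium pores Scn1a, Scn2a, Scn3a and Scn8a had medians of 197, 591, 102 and 528 CPM. Scn1a is known as the main pore of inhibitory interneurons, and Scn2a and Scn8a as those of excitatory axons. Pores known from muscle and peripheral nerve had few reads: Scn4a had a median of 26 counts, Scn7a of 9, Scn9a of 61 and Scn11a of 3. The beta subunits Scn2b, Scn3b and Scn4b had medians of 97.7, 450 and 29.4 CPM.

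In raloxifene against vehicle, the receptor modulator compared with the ovariectomised control, 10 of the 34 channel genes passed the edgeR test, 3 higher and 7 lower. All 3 T-type pores were among the 7, as were Cacng7 and Cacnb3, and the 3 that rose were Cacnb4, Cacna2d1 and Scn2a. The same test called 24.8% of all 14411 genes, 13.4% higher and 11.4% lower, so the count of channel genes lay near that share. The median log2 fold change was -0.13 over the 34 members and -0.023 over all genes. Cell type markers moved in the same comparison. Of 7 oligodendrocyte markers 4 fell, with a list median of -0.36 and a summed level of 4957 to 5858 CPM in raloxifene against 5979 to 7318 in vehicle, and of 7 interneuron markers 3 rose and 1 fell, with sums of 609.6 to 676 against 525 to 585 CPM. Of 5 pan-neuronal markers 3 rose and 2 had folds below 0 that were not called. Their sums, mostly Map2 and Syt1, were 4918 to 5173 against 3988 to 4588 CPM. The oligodendrocyte list median also lay below 0 against vehicle in sham (-0.22), estradiol (-0.35), tamoxifen (-0.23) and anastrozole (-0.28), with 0 markers called. No marker of these lists was at 0 in any library, and the part of these cell types in the channel result was not tested. By role the test called 3 of 3 T-type pores, 1 of 3 alpha2delta genes, 2 of 4 calcium beta genes, 1 of 6 TARPs and 1 of 4 brain sodium pores, and none of the 2 L-type and 3 P/Q, N and R-type pores. In DESeq2 the count was again 10, with Cacng8 among them, against 26.3% of all genes.

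Cacna1g, the T-type pore of thalamic and cortical burst firing, stood at 91.7, 96.7, 96.8, 95.6 and 92.2 CPM in the 5 raloxifene libraries and at 117, 132, 136, 100 and 120 in vehicle. The groups did not overlap, and the lowest vehicle value was that of its class B library. The log2 fold change was -0.36 ± 0.098 (SE), with an adjusted p of 0.0146 in edgeR. Cacna1h, the T-type pore most sensitive to nickel and zinc, stood at 129, 147, 128, 118 and 126 CPM against 185, 188, 162, 142 and 194 in vehicle. Raloxifene replicate 2 lay above vehicle replicate 4, and all the other raloxifene libraries lay below every vehicle library. The fold was -0.42 ± 0.12 (adjusted p 0.0177). Cacna1i, the slowest-gating T-type pore, stood at 187, 183, 169, 166 and 166 CPM against 212, 244, 232, 171 and 255. The groups overlapped through vehicle replicate 4 alone. The fold was -0.36 ± 0.13 (adjusted p 0.0382).

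Among auxiliary calcium channel subunits, Cacnb4, a beta subunit whose loss causes ataxia and seizures in mice, stood at 146, 135, 161, 149 and 156 CPM in raloxifene and at 91.4, 107, 114, 124 and 93.2 in vehicle. All raloxifene libraries lay above all vehicle libraries, and the fold was 0.50 ± 0.14 (adjusted p 0.0143). Cacna2d1, the subunit that binds gabapentin, stood at 230, 241, 262, 231 and 284 CPM against 201, 190, 187, 188 and 185. These groups did not overlap either, and the fold was 0.39 ± 0.10 (adjusted p 0.0128). Cacnb3, a beta subunit found with N-type channels, moved the other way, at 113, 112, 107, 103 and 104 CPM against 137, 142, 142, 115 and 137. Its highest raloxifene value lay just below vehicle replicate 4, and the fold was -0.32 ± 0.11 (adjusted p 0.0269). The TARP Cacng7 stood at 66.9, 72.8, 71.6, 65.3 and 63.1 CPM against 87.3, 83.7, 91.2, 75.4 and 89.0, again without overlap. Its fold was -0.33 ± 0.085 (adjusted p 0.0128).

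Among sodium channel genes, Scn2a stood at 672, 659, 725, 661 and 736 CPM in raloxifene and at 568, 589, 591, 587 and 542 in vehicle. The groups did not overlap, and the fold was 0.26 ± 0.085 (adjusted p 0.0263).

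**Figure D1:**
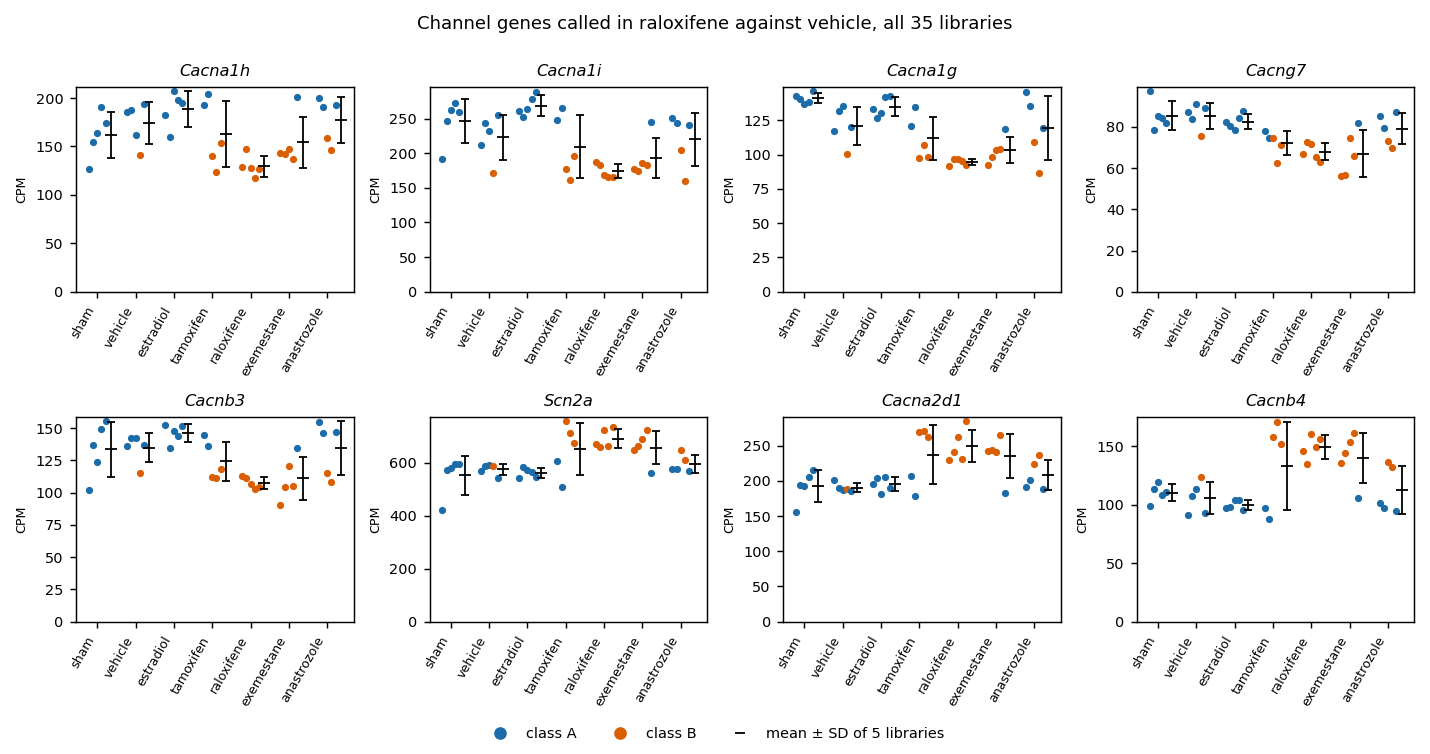
Level in CPM (y axis, from 0) of channel genes called in raloxifene against vehicle, in each of 35 libraries by group (x axis). Points are libraries, coloured by class A or B, and bars are the mean ± SD of 5 libraries. Cacna1g and Cacnb4 separate by class without overlap, and the share of all genes that do so is not at hand.

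Members that did not pass also had sizeable differences. Cacng8, the main TARP of hippocampal pyramidal cells, stood at 88.3, 95.8, 92.5, 83.6 and 87.1 CPM in raloxifene and at 140, 129, 135, 98.3 and 134 in vehicle. The groups did not overlap, yet the fold of -0.51 ± 0.20 had an adjusted p of 0.0572. Cacna1a, the P/Q-type pore of fast transmitter release, stood at 288, 321, 328, 290 and 266 CPM against 351, 354, 376, 302 and 368. Its groups overlapped through vehicle replicate 4, and the fold of -0.23 ± 0.092 had an adjusted p of 0.0622. Over all members, the raloxifene and vehicle libraries did not overlap for 10 members, 4 higher and 6 lower, against 18% of all genes. Those were 7 of the called genes, and Cacna2d2, Cacng2 and Cacng8.

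With class as a term, 0 of the 34 members passed in raloxifene against vehicle in edgeR. An unadjusted p under 0.05 was reached by 2, and no fit with class used DESeq2. In that fit edgeR called 0.00694% of all genes. The fold of Cacnb4 was then 0.08, that of Cacna2d1 0.14, that of Scn2a 0.09 and that of Cacng7 -0.14. The T-type pores Cacna1g and Cacna1h were each at -0.07, Cacna1i at 0.03 and Cacnb3 at -0.05. The class B libraries alone hold 1 vehicle library, so the number of members called there is not given. With the authors' per-gene factors as offsets, 3 members passed, Cacnb4 at 0.33, Cacna2d1 at 0.30 and Cacng7 at -0.23, against 6.41% of all genes. Of the genes called in that fit 68.8% were higher, against 54.1% as designed. In fits that leave out 1 of the 10 libraries compared, Cacnb4, Cacna2d1, Cacna1h, Cacna1g and Cacng7 passed in all 10, Scn2a in 6, Cacnb3 in 3 and Cacna1i in 2. Without raloxifene replicate 5 the count was 6, where edgeR called 12.3% of all genes. Without sham replicate 1, which enters the estimate of spread, it was 14, against 26.9% of all genes.

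**Figure D2:**
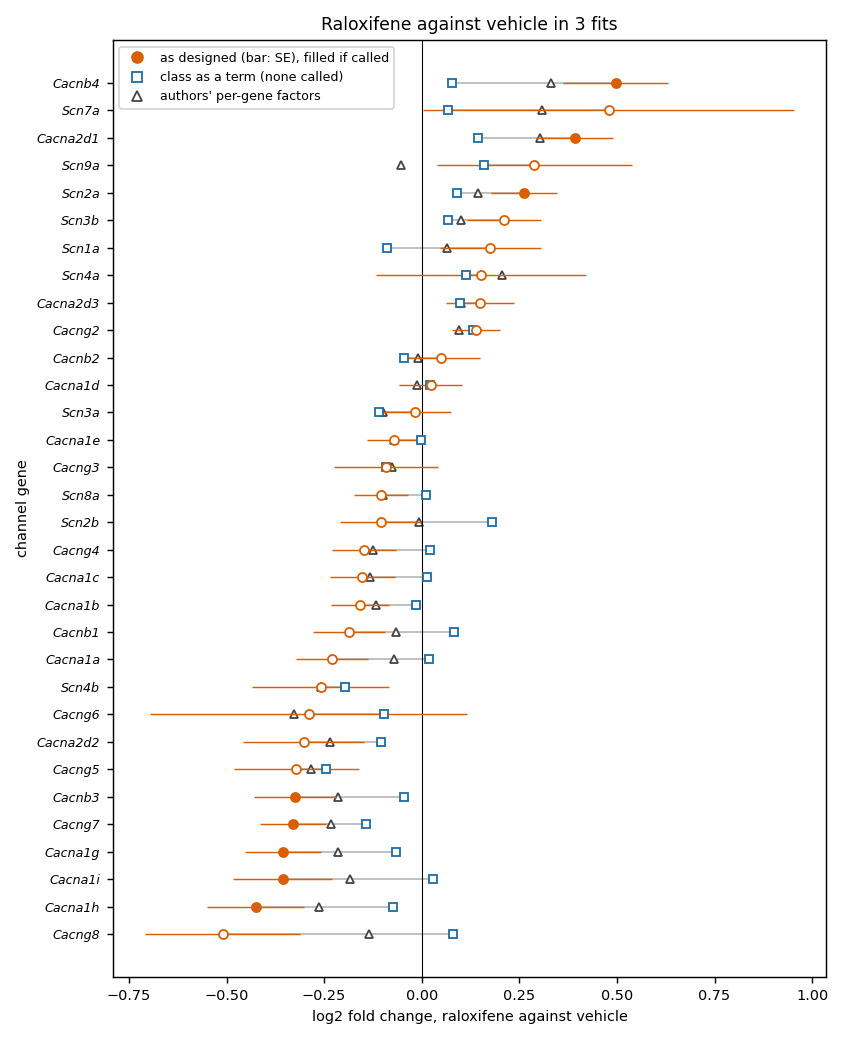
Log2 fold change of raloxifene against vehicle (x axis) for channel genes (y axis), as designed with its SE and filled where called, with class as a term, and with the authors' per-gene factors. Cacnb4 goes from 0.50 to 0.08 with class and Cacna1g from -0.36 to -0.07.

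In exemestane against vehicle, the steroidal aromatase inhibitor compared with the same controls, 2 of 34 members passed in edgeR, both lower, against 6.51% of all genes, 4.06% higher and 2.45% lower. Of the 7 oligodendrocyte markers 4 fell here too, with a list median of -0.37 and sums of 4644 to 6376 CPM that overlapped with vehicle, and 0 of 7 interneuron markers passed, with 3 at an unadjusted p under 0.05. Their part in the channel result was not tested. Cacng7 was among the 2 channel genes called, and it was also lower in raloxifene, a comparison that shares the vehicle libraries. Cacng7 stood at 56.1, 56.6, 74.6, 65.9 and 82.0 CPM in exemestane, and its highest value, replicate 5, was inside the vehicle range. The fold was -0.35 ± 0.085 (adjusted p 0.0394). Cacna2d1, at 242, 244, 242, 265 and 183 CPM, did not pass, with a fold of 0.31 ± 0.10 and an adjusted p of 0.0541. Exemestane replicate 5 was again the exception and lay below all 5 vehicle libraries. Cacnb4, at 136, 145, 154, 162 and 106 CPM, did not pass either, with a fold of 0.40 ± 0.14 and an adjusted p of 0.0577. Replicate 5 was here inside the vehicle range, and the other 4 libraries lay above it.

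Exemestane replicate 5 is the class A library of its group, and vehicle replicate 4 the class B library of vehicle. The number of members called was 9 without the first, where edgeR called 28.7% of all genes, and 7 without the second, where it called 19.5%. It was 0 without any of the other 8 libraries compared, where edgeR called 0% of all genes. Without sham replicate 1 it was 4, against 8.75% of all genes, and without anastrozole replicate 4 it was 5, against 10.1%. With class as a term 0 members passed in edgeR, against 0% of all genes, and Cacng7 stood at -0.21. An unadjusted p under 0.05 was reached there by 3 members. DESeq2, without class, called 5, Cacna2d1 and Cacnb4 higher and Cacng4 and Cacng7 among the 3 lower, against 13.1% of all genes.

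In estradiol against vehicle, the comparison that asks what the hormone changes after ovariectomy, 0 of 34 members passed in edgeR or DESeq2. The called share of all genes was 0.00694% in edgeR and 0.106% in DESeq2. An unadjusted p under 0.05 in edgeR was reached by 2 members and by 1316 of all 14411 genes. The median fold of the members was 0.044 and that of all genes -0.0077. The smallest p was that of Scn2b, a beta subunit that raises sodium channel density at the membrane. It stood at 126, 110, 126, 115 and 130 CPM in estradiol and at 99.7, 103, 95, 79.7 and 96.4 in vehicle. All estradiol libraries lay above all vehicle libraries, and the fold was 0.35 ± 0.10 (unadjusted p 0.00163, adjusted p 0.305 in edgeR). Groups did not overlap for Scn2b and Cacnb1, 2 of 34 members, against 3.73% of all genes. Cacna1i had a fold of 0.27 ± 0.13 and Cacnb1 one of 0.17 ± 0.093, with adjusted p-values of 0.523 and 0.566 in edgeR.

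With class as a term, Scn2b passed in estradiol, at 0.29 ± 0.067 (adjusted p 0.0487 in edgeR), the 1 member among 34, against 0.298% of all genes, 0.222% higher and 0.0763% lower. It also passed when the 2 groups were fitted alone (adjusted p 0.0479). In the class A libraries alone its fold was 0.30, with an adjusted p of 0.127. Of 10 fits with class that leave out 1 library, Scn2b passed in 2, those without estradiol replicate 2 and without vehicle replicate 4, with folds from 0.27 to 0.33 and adjusted p-values from 0.0310 to 0.162. In the other comparisons with class, the Scn2b fold against vehicle was 0.27 in tamoxifen, 0.20 in anastrozole, 0.18 in raloxifene, 0.08 in sham and 0.07 in exemestane, and none of these passed.

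**Figure D3:**
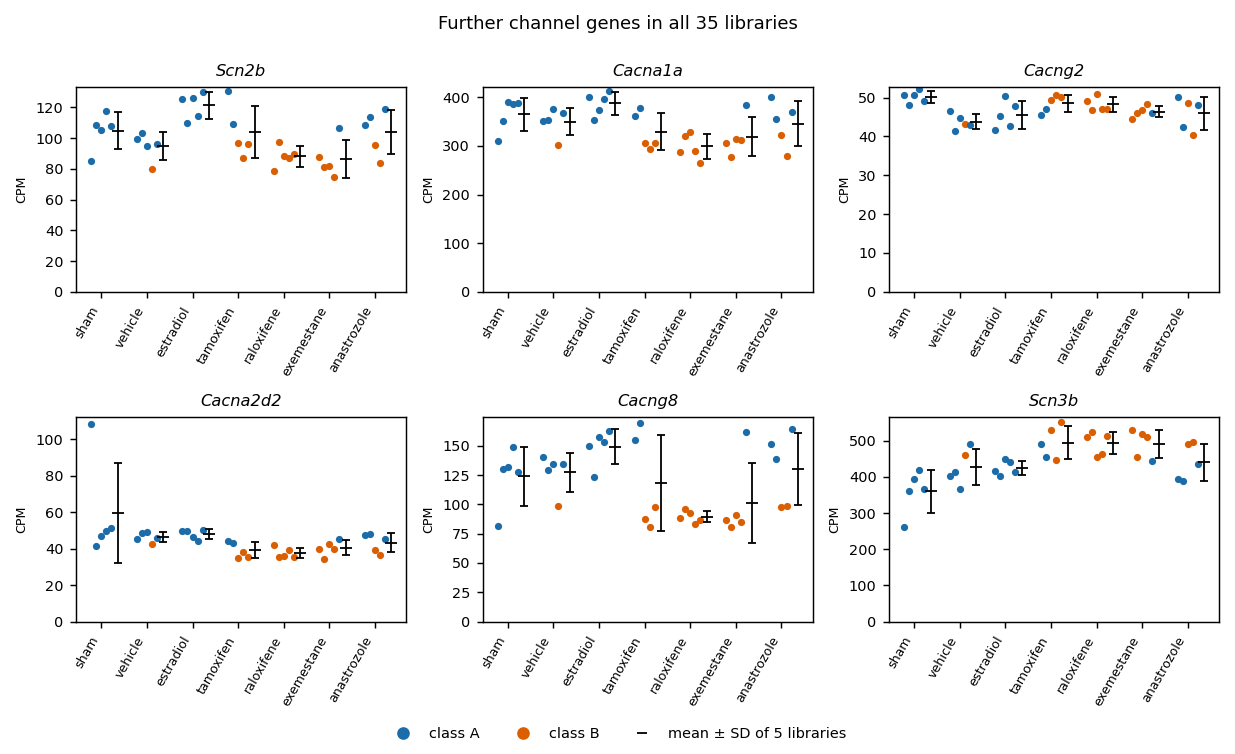
Level in CPM (y axis, from 0) of 6 further channel genes in each of 35 libraries by group (x axis), with points coloured by class and bars for the mean ± SD of 5 libraries. The 5 estradiol libraries lie above all vehicle libraries for Scn2b, and sham replicate 1 lies at 108 CPM for Cacna2d2.

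In sham against vehicle, which asks what loss of the ovaries changes, 0 of 34 members passed in edgeR or DESeq2. The called share of all genes was 0% in edgeR and 0.093% in DESeq2. An unadjusted p under 0.05 in edgeR was reached by 5 members and by 981 of all 14411 genes. Cacng2, the TARP stargazin, had the smallest p. It stood at 50.7, 48.0, 50.7, 52.1 and 49.2 CPM in sham and at 46.5, 41.4, 44.8, 43.3 and 43.0 in vehicle. The groups did not overlap, and the fold was 0.20 ± 0.060 (adjusted p 0.461). Cacna1g did not overlap either, at 143, 141, 137, 138 and 146 CPM in sham, with a fold of 0.22 ± 0.097 (adjusted p 0.666), and 1.46% of all genes did not overlap. Scn3b, a beta subunit, had a fold of -0.25 ± 0.094 (adjusted p 0.575), and of -0.15 without sham replicate 1, the lowest library at 261 CPM. Cacna2d2, the alpha2delta subunit lost in the ducky mouse, had a fold of 0.37 ± 0.15 (adjusted p 0.618). That fold rests on sham replicate 1, at 108 CPM where the other sham libraries were at 41.6 to 51.0, and it was 0.04 without that library. Once class was a term, 0 members passed in edgeR, against 0.0416% of all genes, 0.0208% higher and 0.0208% lower. An unadjusted p under 0.05 was reached there by 9 members.

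In tamoxifen against vehicle, 0 of 34 members passed in edgeR or DESeq2. The called share of all genes was 0% in edgeR and 0.551% in DESeq2. An unadjusted p under 0.05 in edgeR was reached by 6 members and by 2365 of all 14411 genes. Cacna2d1 stood at 207, 178, 270, 270 and 262 CPM in tamoxifen, with the first pair in class A and the other 3 libraries in class B. All but replicate 2 lay above every vehicle library, replicate 1 at 207 against a vehicle highest of 201. The fold was 0.32 ± 0.10 (adjusted p 0.172). Cacnb4 stood at 97.6 and 87.8 CPM in class A and 158, 171 and 152 in class B, with a fold of 0.33 ± 0.14 (adjusted p 0.240), and Cacng7 had a fold of -0.24 ± 0.085 (adjusted p 0.209). Without tamoxifen replicate 2, Cacna2d1 and Cacnb4 passed, where edgeR called 4.01% of all genes. In the fit with class 0 members passed in edgeR, against 0% of all genes, and 4 members reached an unadjusted p under 0.05. The folds were then 0.18 for Cacna2d1, 0.08 for Cacnb4 and -0.15 for Cacng7, and the median over members went from -0.055 to 0.026.

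In anastrozole against vehicle, 0 of 34 members passed in edgeR or DESeq2. The called share of all genes was 0% in edgeR and 0.0133% in DESeq2. An unadjusted p under 0.05 in edgeR was reached by 0 members and by 414 of all 14411 genes. Cacna2d1 stood at 191, 201, 224, 237 and 188 CPM in anastrozole. Replicates 2, 3 and 4 lay above the vehicle range, the first of them by less than 1 CPM, and the other 2 lay inside it. The fold was 0.13 ± 0.10, that of Cacng7 -0.11 ± 0.084 and that of Scn2b 0.13 ± 0.10, all with an adjusted p of 0.999879 in edgeR. Without anastrozole replicate 4 these were 0.08, -0.07 and 0.20, and Scn2b was at 0.08 without vehicle replicate 4 and 0.09 without anastrozole replicate 5. When class was added 0 members passed in edgeR, against 0% of all genes, and 2 members reached an unadjusted p under 0.05. The folds of Cacna2d1, Cacng7 and Scn2b were then 0.06, -0.07 and 0.20.

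**Figure D4:**
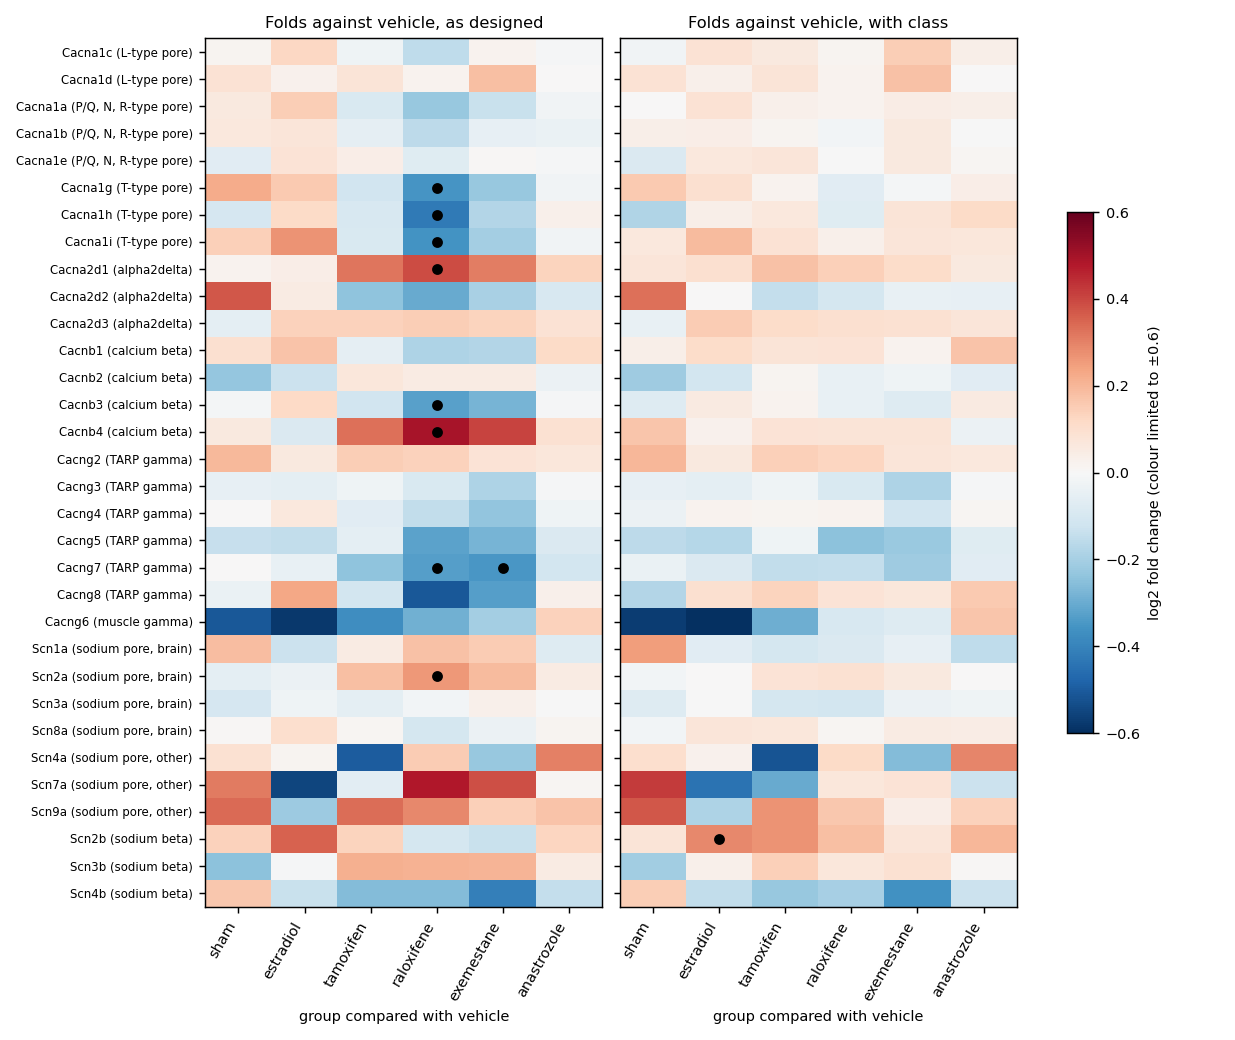
Log2 fold change against vehicle (colour, limited to ±0.6) of channel genes (rows, by role) in 6 groups (columns), as designed and with class as a term, with a dot where edgeR called the gene. The dots of the first panel lie in raloxifene and exemestane, and the 1 dot of the second is Scn2b in estradiol.

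Tamoxifen and raloxifene, both non-steroidal receptor modulators, were compared directly, at doses that differ. In edgeR or DESeq2 0 of 34 members passed. The called share of all genes was 0% in edgeR and 0.0465% in DESeq2. An unadjusted p under 0.05 in edgeR was reached by 6 members and by 1212 of all 14411 genes. Cacna1h stood at 192, 204, 140, 124 and 154 CPM in tamoxifen, above raloxifene by 0.33 ± 0.12 (adjusted p 0.584). Cacna1g differed by 0.24 ± 0.098 without overlap, the 1 such member against 0.881% of all genes, and Scn4a, the skeletal muscle pore, by -0.65 ± 0.28, each with the same adjusted p. With class as a term the folds of Cacna1h and Cacna1g were 0.14 and 0.09, and that of Scn4a was -0.63, with 0 members called, 2 at an unadjusted p under 0.05 in edgeR and 0% of all genes called.

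Exemestane, a steroid, and anastrozole, which is not one, were also compared at doses that differ. In edgeR 0 of 34 members passed, against 0% of all genes. An unadjusted p under 0.05 was reached by 9 members and by 3900 of all 14411 genes. DESeq2 called 2, Cacnb1 among them, against 5.6% of all genes. Cacnb1, a beta subunit, stood at 102, 105, 109, 107 and 129 CPM in exemestane and at 160, 151, 112, 111 and 142 in anastrozole. The groups overlapped through exemestane replicate 5 and the class B pair of anastrozole libraries. The fold was -0.29 ± 0.092 (adjusted p 0.0901), that of Cacng7 -0.24 ± 0.085 (0.100) and that of the TARP Cacng4 -0.21 ± 0.081 (0.107). The count was 8 without exemestane replicate 5, 7 without anastrozole replicate 4 and 2 without anastrozole replicate 3. In those fits edgeR called 23.8%, 18.6% and 10.6% of all genes. In the fit with class 0 members passed in edgeR, against 0.0278% of all genes, 0.0208% higher and 0.00694% lower. An unadjusted p under 0.05 was reached there by 4 members.

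Over the 7 groups together, 15 of 34 members differed in edgeR, 11 calcium and 4 sodium channel genes, against 37% of all genes. The smallest p was that of Cacna1g (8.8e-06, adjusted p 0.000569), followed by Cacng7, Scn3b, Cacna1i and Cacnb4. Among the others were Cacna1a, Cacna1h, Cacna2d1, Cacna2d2, Cacnb1, Cacnb3, Cacng4, Scn2a and Scn2b. Group means of Cacna1g ran from 94.6 ± 2.48 CPM in raloxifene through exemestane, tamoxifen, anastrozole, vehicle and estradiol to 141 ± 3.64 in sham (SD, n = 5). Without 1 library the count ran from 12, where edgeR called 33.4% of all genes, to 17, where it called 35.7 to 40.1%. Cacng4 was the member lost most often. After adding class 0 members passed in edgeR, against 0.0278% of all genes, and 6 members reached an unadjusted p under 0.05.

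The class term itself called 19 of 34 members, 5 higher and 14 lower in class B, against 51.9% of all genes, 25.5% higher and 26.3% lower. Those higher were Cacnb4 at 0.53 ± 0.055, Scn1a at 0.33 ± 0.090, Cacna2d1 at 0.30 ± 0.059, Scn2a at 0.21 ± 0.054 and Scn3b at 0.18 ± 0.066. Among those lower were Cacng8 at -0.72 ± 0.080, Cacna1i at -0.47 ± 0.055, Cacna1h at -0.43 ± 0.061 and Cacna1g at -0.35 ± 0.045, with Scn2b, Cacnb3, Cacnb1, Cacna1a, Cacng7, Cacng4, Cacna1c, Cacna1b and Scn8a. By role the lower set held all 3 T-type pores and 2 of 3 P/Q, N and R-type pores. Class A libraries had 87.8 to 119 CPM of Cacnb4, below the 124 to 171 of class B, and 117 to 146 CPM of Cacna1g, above the 86.3 to 109 of class B, so for both the classes did not overlap. The share of all genes without overlap between the classes is not at hand, so this is not read as particular to them. Without sham replicate 1, a fit chosen after the values were seen, the class term called 21, 5 higher and 16 lower. The share of all genes called in that fit is not at hand, so this count has no background beside it.

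**Figure D5:**
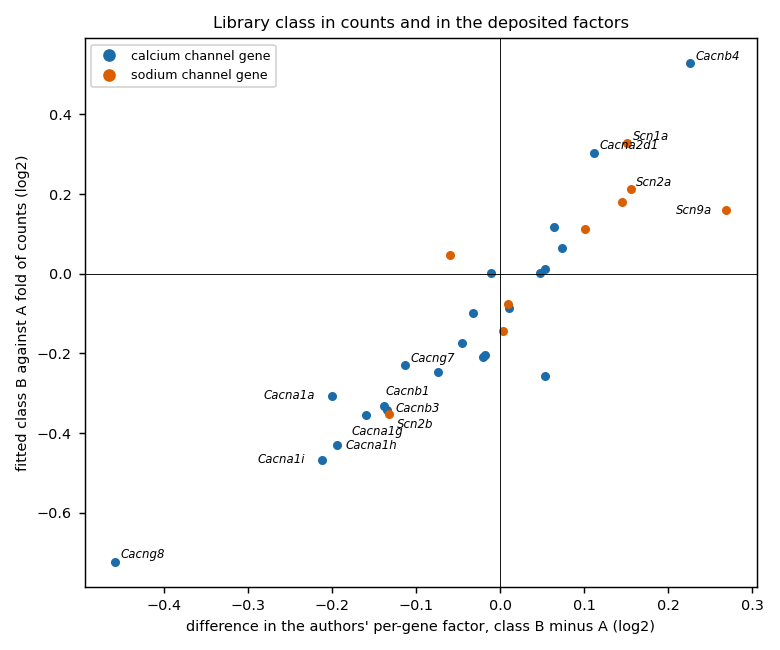
Class B against class A log2 fold change of counts (y axis) against the class difference in the authors' per-gene factor on the log2 scale (x axis), 1 point per channel gene, coloured by calcium or sodium channel. Most points lie where both values have the same sign, with Cacng8 lowest and Cacnb4 highest on the y axis.

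The authors' per-gene factor differed between the classes in the same direction as the counts for 26 of 33 members, with a Pearson r of 0.89 and a Spearman rho of 0.893 across genes. This is a description, since both values come from the same count table and the factor defines the class. Cacng8 and Cacnb4, with class differences of -0.72 and 0.53 in the counts, lay toward opposite ends of both scales.

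In a principal component analysis of the 28 members with a median of at least 10 CPM, the first component held 50% and the second 21.7% of the variance. On the second, sham replicate 1 scored -12.9 and the other 34 libraries -1.86 to 2.04. Scores on the first ran from -5.62 to 0.507 in class A and from 2.04 to 5.65 in class B. Cacna1i, Cacna1a, Cacng8 and Cacnb3 loaded toward the class A end, and Cacnb4, Cacna2d1, Scn2a and Scn1a toward the class B end. Over 378 pairs the median Pearson correlation of log2 CPM was 0.13, and 0.186 after centring each class, over 35 libraries that share class and depth. The highest was 0.94 for Cacna1h with Cacng8 (0.831 after centring) and the lowest -0.851 for Cacnb4 with Cacng8 (-0.293 after centring).

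The other genes whose log2 CPM was most like that of Cacna1g over the 35 libraries were Tmem151b, with a Pearson r of 0.946, Prkag1 at 0.932, Cbarp at 0.931, Csmd2 at 0.93 and Plec at 0.928. After centring each class the 5 were Kcnt1, a sodium-activated potassium channel, at 0.678, Dok5 at 0.671, Kmt2a at 0.67, Asxl3 at 0.643 and Pitpnm3 at 0.638. No gene appeared in both lists.

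Genes that work with the channels were taken from lists of regulators, effectors and partners. In raloxifene, 4 of 18 calcium channel regulators passed, 2 higher and 2 lower. Rims2, a scaffold of the release site, rose by 0.21 ± 0.073, whereas the adaptor Stac2 fell by 0.42 and the calcium sensor Cabp1 by 0.41 on the log2 scale. Of 19 effectors of calcium entry, 2 rose and 4 fell. Those that rose were the calcineurin subunits Ppp3cb and Ppp3r1, both at 0.44 ± 0.12. Of those that fell, the CREB coactivator Crtc1 was at -0.48 ± 0.15 and the kinase Camkk2 at -0.38 ± 0.13. Of 12 sodium channel partners, Fgf13, which binds the channel's tail, rose by 0.34 ± 0.11, and Sptbn4, a spectrin of the axon initial segment, and Cntnap1, a protein of the paranode, stood at -0.42 ± 0.13 and -0.23 ± 0.083. The leak channel Nalcn rose by 0.21 ± 0.066, the 1 of 3 genes of its complex. The called shares of these lists, 4 of 18, 6 of 19, 3 of 12 and 1 of 3, stand beside the 24.8% of all genes, and with class as a term 0 genes of these lists passed in edgeR, with 1 at an unadjusted p under 0.05.

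In exemestane, Stac2 at -0.61 ± 0.13 (adjusted p 0.0394), Cabp1 at -0.47 ± 0.13 (0.0403) and Nalcn at 0.21 ± 0.066 (0.0487) passed in edgeR. No effector of 19 and no sodium channel partner of 12 did, where edgeR called 6.51% of all genes. With class none of the 3 passed, at -0.47, -0.27 and 0.09. In the other 4 comparisons with vehicle, and in both comparisons between drugs of a kind, edgeR called none of these lists' genes.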

How the data were processed

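Hippocampal poly(A) RNA was sequenced as stranded libraries, per the labels' protocols. The authors deposited 1 table of estimated counts per gene, and 1 table of the same genes after their normalization, a signal with no unit stated. Salmon and DESeq2 are named without versions or roles in the submitters' processing notes, and the genome build and annotation are not given in the sources used here. The quotient of the 2 deposited tables gave the authors' per-gene factor and the library class.

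Estimated counts were scaled by TMM and filtered by filterByExpr (minimum count 10). edgeR 4.0.16 (R 4.3.3) fitted the robust quasi-likelihood test to all 35 libraries, with Benjamini-Hochberg adjustment over 14411 genes and a threshold of 0.05, for 8 comparisons and for any difference among 7 groups. A called gene passed that threshold. Percentages of all genes beside counts of called members are shares called after adjustment. For fits with class, no share of all genes at an unadjusted p is given. Log2 CPM used a prior count of 2. Fold changes are log2, with their SE. Data were simulated for raloxifene against vehicle over 14411 genes, with 100 changed 1.5-fold, 100 changed 2-fold and no class difference between libraries. The test recovered 61% of 1.5-fold and 83% of 2-fold changes, with 9 false calls. Far fewer genes were changed there than were called in the data, so these rates need not hold for the data. Recovery of changes smaller than 1.5-fold was not tested. The part of library class in these values was not tested either. The alternatives were another scaling, no filter, the class as a term or alone, the authors' factors, 2 groups alone, DESeq2 1.42.0 and leaving out each library.

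The member genes and the lists of partners and markers were chosen with earlier results of these data known. Full statistics are given for up to 8 called members each way with a median of at least 1 CPM, or for the 3 of smallest p where fewer were called. Values per library are given for the 12 members of smallest p in raloxifene and those of smallest p elsewhere, and up to 4 called genes are named per list of partners. Some genes that these rules select are not reported here, and the counts include them. All columns were matched to samples by name. Cacna1f, Cacna2d4, Cacng1 and Scn10a were not analysed here. Sequences are RefSeq promoters, matched by symbol.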

Additional observations from a re-analysis of the deposited data

Results flagged for a closer look

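In 9 of 91 sets of 1 gene in 1 group, the highest or lowest library lay far from the other 4 by Dixon's ratio, with a critical value of 0.71. Chance flags about 1 in 20 such sets when the libraries of a group vary alike. The sets share libraries and several groups hold both classes, so the number flagged was not weighed against that rate. Exemestane replicate 5, the class A library of its group, accounted for 5: Cacna1h at 200.9 CPM (others 138 to 147), Cacna1i at 245 (175 to 186), Cacnb1 at 129 (102 to 109), Cacng8 at 162 (80.7 to 91.1) and, as the lowest, Cacna2d1 at 183 (242 to 265). Vehicle replicate 4, the class B library of its group, was lowest for Cacnb3 at 115 CPM (137 to 142) and Cacng8 at 98.3 (129 to 140.2). Sham replicate 1, which stood apart in its tissue markers, was lowest for Cacnb1 at 105 CPM (136 to 146) and Scn2a at 422 (573 to 596). The part of class and of tissue markers in these values was not tested.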

How the results depend on the processing

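Numbers of channel genes called are given against 10 in raloxifene, 2 in exemestane, 15 over the 7 groups and 0 in the other comparisons. As designed, 24.8%, 6.51% and 37% of all genes were called in the first 3 of these. With class as a term the numbers were 0 in raloxifene, 0 in exemestane, 0 over the 7 groups and 1 in estradiol, the last against 0.298% of all genes. Class A holds 1 exemestane library and class B 1 vehicle library, so numbers called in the classes fitted alone are not given. Within class B, that vehicle library was the lowest for Cacna2d1, at 188 CPM in a range up to 284. Class A holds no raloxifene library and class B no sham or estradiol library, so those gave no value. The authors' per-gene factors gave 3 in raloxifene, 1 in exemestane and 9 over the 7 groups, against 6.41%, 0.93% and 17.7% of all genes. The 2 groups alone gave 17 in raloxifene, 0 in exemestane and 1 in estradiol, against 35.1%, 0% and 0.229% of all genes. DESeq2 gave 5 in exemestane and 2 in exemestane against anastrozole, where it called 13.1% and 5.6% of all genes. Without 1 library the counts ran from 6 to 14 in raloxifene, 0 to 9 in exemestane, 0 to 2 in tamoxifen, 0 to 8 in exemestane against anastrozole and 12 to 17 over the 7 groups, and stayed at 0 in sham, estradiol, anastrozole and tamoxifen against raloxifene. At the highest count edgeR called 26.9% of all genes in raloxifene, 28.7% in exemestane and 4.01% in tamoxifen. It called 23.8% in exemestane against anastrozole and 35.7 to 40.1% over the 7 groups. The class term called 21 without sham replicate 1, against 19, with no share of all genes at hand for the first. Another scaling and no filter left every count within 1.5 times. Direction turned for Cacna1i in raloxifene, at 0.029 with class and 0.0095 in class B alone, and, in class A alone, for Cacnb4 in tamoxifen (-0.13) and Cacna2d1 in exemestane (-0.059). The cause was not tested. No paired analysis was possible because the labels number the libraries in 1 running series that no groups share. Scn4a, Scn7a, Cacng6 and the untested Cacna1s and Scn11a are limited by their counts.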
